A study of Mus musculus with 2 samples.

Results

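The mitochondrial ribosomal protein genes were taken by symbol: protein-coding genes of the GENCODE M21 annotation on the mouse build mm10 whose symbol starts with Mrpl or Mrps and goes on with a digit. This rule found 78 of 21938 protein-coding genes, 49 named for the large subunit and 29 named for the small one. The thymus of 2 mice had been assayed by DNase-seq, with 1 library per mouse; both were females of strain B6CASTF1/J at an age of 25 days. B6CASTF1/J animals are first-generation offspring of C57BL/6J and CAST parents, and both mice belong to 1 group with no treatment named in the labels, so no condition was compared. The libraries are called replicate 1 and replicate 2, after their biological replicate numbers.

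Mitochondria carry their own ribosomes, which translate the few mRNAs encoded by mitochondrial DNA, and the proteins made from them are subunits of the oxidative phosphorylation complexes. The ribosomal RNAs of these particles come from mitochondrial DNA, while every one of their proteins is encoded in the nucleus, translated in the cytosol and imported. The members are spread over the nuclear genome and are needed in nearly all cell types, including developing T cells. Their names do not always give the subunit: the products of Mrps18a and Mrps30 sit in the large subunit, and that of Mrps36 is known as a component of the oxoglutarate dehydrogenase complex. ETS-family factors such as GABPA, and also NRF1 and YY1, are known to act at many nuclear genes for mitochondrial proteins.

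DNase I cuts accessible DNA, a peak is a stretch of dense cutting, and a footprint is a short protected stretch that can mark bound protein. Here a promoter means all bases within 1 kb of the gene start, which is the 5′ end of the gene model. The promoters were searched for the letters of these factors, and the sequences below are examples of the matches found. They are from the highest-ranked members whose ETS, NRF1 or YY1 letters had their midpoint under a footprint in both libraries, read from the reference genome (GRCm38/mm10, RefSeq FASTA) on the gene's strand. Capitals mark the letters matched (ETS CCGGAAG, NRF1 GCGCANGCG or YY1 AAGATGGC, on either strand).
Mrpl17, NRF1, chr7:105811118-105811146, minus strand: aggctctgatGCGCACGCGcaaacgcggt
Mrps18b, ETS, chr17:35916380-35916408, minus strand: gcgcagtcgctCTTCCGGcaggccgtacg
Mrps18b, YY1, chr17:35916348-35916377, minus strand: cggtgtgcgtcAAGATGGCtgcccccttgc
Mrpl18, ETS, chr17:12916314-12916342, minus strand: aactgaaaacgCCGGAAGtagggggctgc
Mrpl34, ETS, chr8:71464878-71464906, plus strand: aactacagctcCCGGAAGgccccgcggca
Mrpl32, NRF1, chr13:14613106-14613134, minus strand: tttgacccttGCGCATGCGcaagaggggc
Mrpl45, NRF1, chr11:97315668-97315696, plus strand: tggtttcattGCGCACGCGcgaacccact

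The matches printed lie within 67 bp of the gene start. The matched letters are centred 33 bp before the start of Mrpl17, 5 bp before that of Mrps18b for ETS and 26.5 bp after it for YY1. In Mrpl18 the ETS letters are centred 17 bp after the start, and in Mrpl34 they are 67 bp before it. Those of Mrpl34 lay outside any called peak in replicate 1, where the nearest peak was 159 bp from the start. The NRF1 letters of Mrpl32 are centred 45 bp after its start, and a match on the other strand overlaps them, centred 46 bp after it. Under footprints of both libraries, Mrpl17 has a second NRF1 match centred 5 bp after its start, and Mrps18b has an NRF1 match at -271 bp, farther upstream. Mrpl45 has 3 NRF1 matches under footprints of both libraries, centred 116 bp and 34 bp before and 20 bp after the start. A match of letters is a description of the sequence, and binding of these factors was not measured.

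Depth is not stated for these libraries. Replicate 1 had 127552 peaks and 363775 footprints, and replicate 2 had 67270 peaks and 203939 footprints. All 8 thymocyte marker genes (Bcl11b, Cd3e, Cd4, Cd8a, Lck, Ptcra, Rag1 and Tcf7) had a promoter peak in both libraries. None of 4 hepatocyte markers had one, against 2 of 4 muscle markers (Actn2 and Ckm) and 2 of 4 neuron markers (Snap25 and Syt1). Over all protein-coding genes, 54.4% had a promoter peak in both libraries. By density among genes with a promoter peak, Snap25 was at percentiles 14 and 1.87 and Syt1 at 3.65 and 2.82. Actn2 was at 46.9 and 44.4 and Ckm at 64.1 and 60.3. The 8 thymocyte markers had medians of 46.6 and 64.1, from Cd4 at 27.9 and 28.3 to Cd8a at 71.6 and 86.9. In replicate 1 their median was thus below both Actn2 and Ckm. Klc3 starts on the opposite strand within 1 kb upstream of Ckm, so the peaks of Ckm cannot be assigned to it alone. The part of other cell types in the results was not tested. In a whole tissue, fewer cells with an open site and less cutting per cell cannot be told apart.

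Nearly all mitochondrial ribosomal protein promoters were open in both mice. In replicate 1, 76 of 78 members (97.4%) had a promoter peak, against 61.7% of all protein-coding genes. The same 76 had one in replicate 2, against 55.1% of all genes, and 54.4% of all genes had a peak in both. Footprints were found in the promoters of 76 members in each library, against 59.7% and 54.0% of all genes. By name, 48 of 49 large-subunit genes and 28 of 29 small-subunit genes were open in each library. Of 82 cytosolic ribosomal protein genes, which encode the proteins of the ribosome outside mitochondria, 75 (91.5%) had a promoter peak in each library.

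The exceptions were Mrpl35 and Mrps24, which encode proteins of the large and the small subunit. Neither had a peak or a footprint within 1 kb of its gene start in either library. Mrpl35 starts at chr6:71826969 on the minus strand, and its other annotated transcripts start 3159 and 3206 bp further downstream. A peak covered both of those starts in each library, at chr6:71823681-71823880 in replicate 1 with a density of 8.75 and at chr6:71823701-71823880 in replicate 2 with a density of 4.1. Mrps24 starts at chr11:5715680 on the minus strand, and its other transcripts start 7990 to 8038 bp downstream. There the densest peak was chr11:5707621-5707800 in replicate 1, with a density of 10.4, and chr11:5707601-5707800 in replicate 2, with a density of 3.4. When any annotated transcript start was allowed, 78 of 78 members had a peak in each library, against 66.5% and 59.7% of all genes.

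Open as they were, these promoters ranked near the middle of open genes in density. The densest promoter peak of each gene was ranked among all protein-coding genes with a promoter peak in the same library, because the scaling of the density values is not stated. The members' median percentile was 61.0 in replicate 1 and 50.6 in replicate 2, with a mean of 55.8 ± 7.34 (SD, n = 2). Over all genes with a promoter peak in both libraries the medians were 55.9 and 50.6. Cytosolic ribosomal protein genes ranked higher, with medians of 72.4 and 67.4. Members ranged from percentile 19.1 to 99.0 in replicate 1 and from 10.9 to 98.7 in replicate 2. None fell below percentile 10 in either library, while 8 and 4 were above percentile 90. Genes named for the large subunit had medians of 64.6 and 50.6, and those named for the small subunit had 58.7 and 49.

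At the top stood Mrpl17, a large-subunit gene with a bacterial counterpart. Its densest peak had a density of 46.6 (percentile 99.0) in replicate 1 and 30.2 (percentile 97.8) in replicate 2. Mrps18b, 1 of 3 paralogues of a bacterial small-subunit protein, had densities of 32.6 and 33.3 (percentiles 93.4 and 98.7). This densest peak did not cover the Mrps18b start in either library. It lay past the start of Ppp1r10, an opposite-strand gene that starts 45 bp upstream and is transcribed away, so it cannot be assigned to Mrps18b alone. Mrpl18, whose product belongs to the central protuberance of the large subunit, had 29.3 and 30.1 (percentiles 90.6 and 97.8). Mrpl34, a large-subunit gene, had 33.8 and 20.5 (percentiles 94.4 and 91.8). Mrps14, whose product lies in the head of the small subunit, had 36.3 and 18.7 (percentiles 96.0 and 89.6). All 5, picked as the highest by mean percentile, were above percentile 89 in each library, and 3 of them (Mrpl17, Mrps18b and Mrpl18) were above percentile 97 in replicate 2.

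The low end held Mrps25, whose product is a mitochondria-specific protein of the small subunit. Its peak covered the gene start in both libraries but had a density of only 1.48 (percentile 19.1) in replicate 1 and 0.762 (percentile 10.9) in replicate 2. Mrpl53, a mitochondria-specific protein of the large subunit, had 2.53 and 1.49 (percentiles 25.2 and 20.1). Mrpl24, whose bacterial relative lies near the exit of the peptide tunnel, had 2.43 and 1.68 (percentiles 24.7 and 21.7). The small-subunit genes Mrps15, with 3.17 and 1.51 (percentiles 28.3 and 20.2), and Mrps5, with 4.92 and 1.25 (percentiles 35.0 and 17.4), came next. Each of these 5, picked as the lowest by mean percentile, lay below percentile 36 in both libraries.

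**Figure D1:**
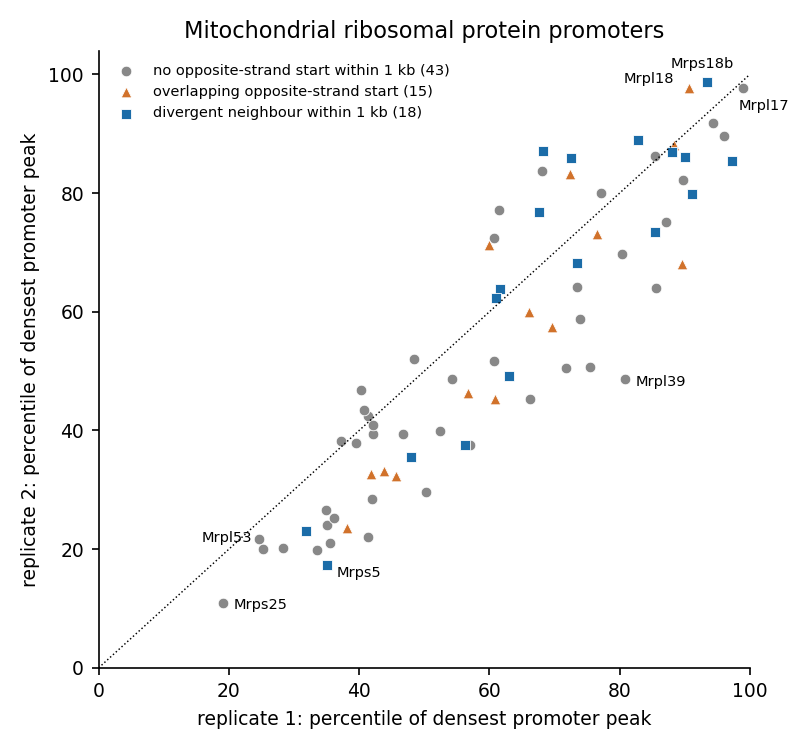
Percentile of the densest promoter peak among all protein-coding genes with a promoter peak, in replicate 1 (x axis) and replicate 2 (y axis), for the 76 members with a peak in both libraries, 1 point per gene, with symbols by the type of opposite-strand neighbour and a dotted line of equality. Points run from Mrps25 (19.1 and 10.9) to Mrpl17 (99.0 and 97.8). Most lie below the line, with 56 of 76 members ranked higher in replicate 1, and Mrpl39 (80.8 and 48.6) lies far below it.

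The order of members was much alike in the 2 mice. Across the 76 genes the Spearman correlation of percentiles was 0.905, and it was 0.93 across the 11945 protein-coding genes with a peak in both libraries. These are correlations across genes, which are not replicates and share the same library. A member's percentiles differed between libraries by a median of 10.5 points, against 7.54 over all genes, and 56 of 76 members ranked higher in replicate 1. Over all genes, 8548 of 11945 ranked higher in replicate 1. The percentiles were taken among different sets of genes, 13527 in replicate 1 and 12085 in replicate 2. The difference was over 20 points in 7 of 76 members and in 1052 of 11945 genes. Among the 7 was Mrpl39, a large-subunit gene, with percentiles of 80.8 and 48.6. The densest peaks of the libraries overlapped in 73 of 76 members (96.1%), against 94.8% of all genes with a peak in both. In Mrpl27, Mrpl53 and Mrpl58 a different peak was densest in each mouse.

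A single compact peak was the usual form of these promoters. In replicate 1, 45 of 76 members (59.2%) had exactly 1 promoter peak, against 35.1% of all genes with a promoter peak. In replicate 2 it was 55 (72.4%), against 51.0%. Members with 3 or more peaks numbered 13 and 4, against 29.1% and 15.2% of all genes. Of the cytosolic ribosomal protein genes, 29.3% and 58.7% had a single peak. The members' densest peaks had a median width of 200 bp in replicate 1 and 210 bp in replicate 2, against 200 and 220 bp over all genes. The authors' false discovery rate was below 0.05 over a median of 1060 and 706 bp of the members' promoter windows, against 1164 and 822 bp over all genes with a promoter peak.

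Mrpl1, Mrpl40 and Mrpl58 were the members with 3 or more peaks in both libraries. Mrpl58, also known as Ict1, encodes a peptidyl-tRNA hydrolase built into the large subunit, and had 3 peaks in each. Mrpl1 also had 3 in each, and Mrpl40 had 4 and 3. Mrpl17 had 5 peaks in replicate 1 and 1 in replicate 2, so its count of peaks differed between the mice while its rank hardly did.

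**Figure D2:**
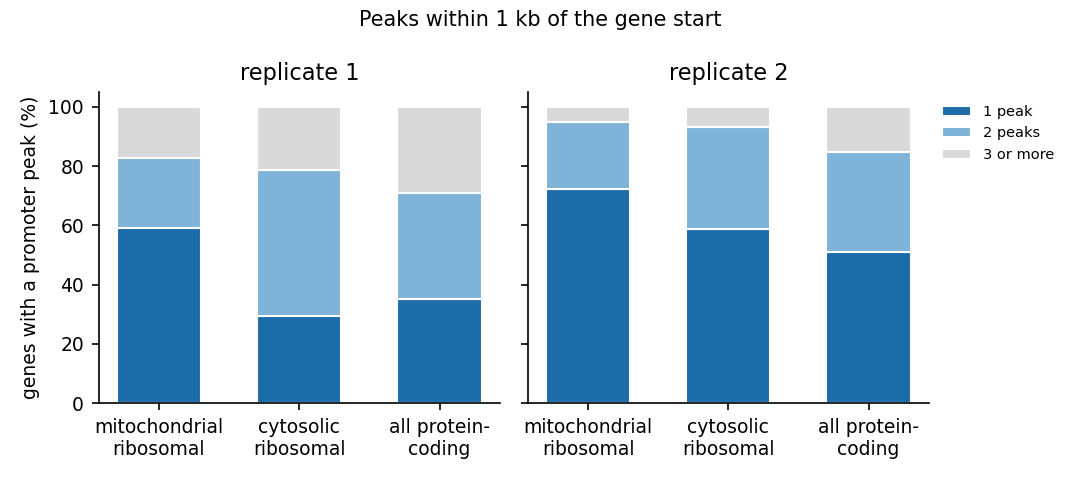
Share of genes with 1, 2 or 3 and more peaks within 1 kb of the gene start, in percent of genes with a promoter peak, for mitochondrial ribosomal, cytosolic ribosomal and all protein-coding genes in each library. The share with 1 peak was 59.2% and 72.4% for the mitochondrial genes and 35.1% and 51.0% for all genes.

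The peaks sat on the gene start. The densest peak covered the start base itself in 58 of 76 members (76.3%) in replicate 1 and 57 (75%) in replicate 2, against 58.6% and 62.1% of all genes with a promoter peak. Its centre lay at a median of 13.5 bp before the start in replicate 1 and 6 bp before it in replicate 2. From the start to 50 bp after it, 81.7% and 80.3% of the members' bases were in peaks, against 66.5% and 65.7% for all genes with a peak in both libraries. From 500 to 550 bp after the start the members' share was 12.4% and 9.47%, against 25.6% and 18.3%. Cytosolic ribosomal protein genes had the densest peak over the start in 69.3% and 76.0% of cases.

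**Figure D3:**
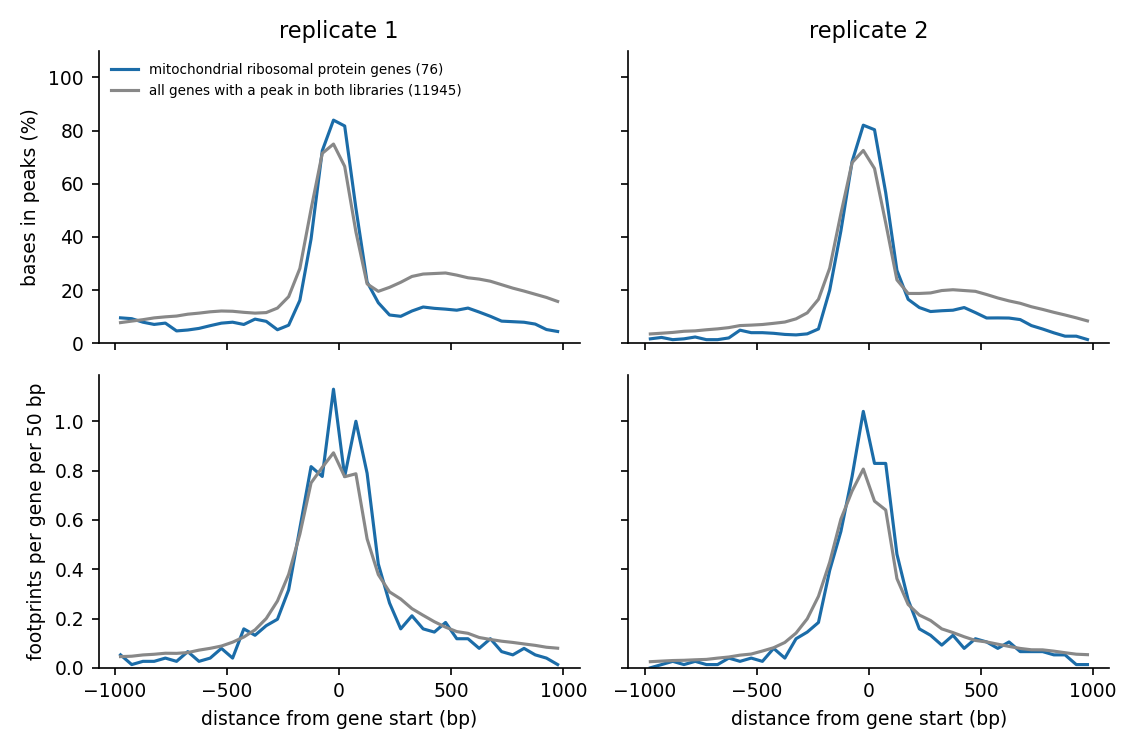
Share of bases in peaks (upper panels, percent) and footprints per gene in each 50 bp bin (lower panels) against distance from the gene start in bp, for the 76 members and the 11945 protein-coding genes with a peak in both libraries. The members' curve is higher from the start to 50 bp after it (81.7% against 66.5% in replicate 1) and lower from 500 to 550 bp after it (12.4% against 25.6%).

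Where the densest peak missed the gene start, it often covered another annotated start of the same gene. In replicate 1 the densest peak was off the gene start in 18 members, and in 12 of these it covered the start of another transcript. In replicate 2 this held for 12 of 19. Over all genes with the densest peak off the gene start, the shares were 24.5% and 27.1%. With every annotated transcript start allowed, the densest peak covered one in 70 of 76 members (92.1%) and 69 (90.8%), against 68.7% and 72.4% of all genes. In Mrpl48 the nearest peak lay 641 bp from the gene start in both libraries, and the densest peak, centred 840.5 and 830.5 bp downstream, covered another annotated start. The same peak also covered the start of Rab6a on the opposite strand, at a distance of -891 bp. The densest peaks of Mrpl20, centred 682.5 bp downstream in both, and of Mrpl1, at 607.5 and 587.5 bp, covered another annotated start too. A weaker peak also covered the gene start of Mrpl1 in both libraries and that of Mrpl20 in replicate 1. Mrpl47, Mrpl54 and Mrps28 had their densest peak 283.5 to 684.5 bp downstream with no annotated start of the same gene under it in either library. That of Mrpl47 covered the start of Ndufb5, its overlapping opposite-strand neighbour (distance of -615 bp, negative for downstream). In Mrps18b and Mrpl34 the densest peak lay upstream, where distances of peak centres are negative. It was centred at -471.5 and -441.5 bp in Mrps18b, past the start of Ppp1r10, and at -188.5 and -178.5 bp in Mrpl34. A weaker peak covered the gene starts of Mrpl47, Mrpl54, Mrps28 and Mrps18b in both libraries. In Mrpl34 the nearest peak lay 159 and 39 bp from the gene start.

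Members had CpG-rich promoters. From 250 bp before to 50 bp after the start, the ratio of observed to expected CpG was above 0.6 in 64 of 78 members (82.1%), against 44.3% of all genes and 71.3% of genes with a promoter peak in both libraries. All 64 CpG-rich members were open in both libraries, against 93.3% and 88.0% of all CpG-rich genes. Within this class the median percentiles were 61.0 and 51.1 for members and 60.7 and 57.9 for all genes. Of the 14 other members, 12 were open in each library, against 36.5% and 28.9% of all genes of that class. The 12 had median percentiles of 62.1 and 48.8, against 28.3 and 29.7 for such genes with a peak, so their ranks were close to those of the CpG-rich members.

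A neighbour transcribed away from the member was common. In 18 of 78 members (23.1%) a protein-coding gene on the opposite strand started upstream within 1 kb, against 6.79% of all genes and 11.8% of genes with a promoter peak in both libraries. Cytosolic ribosomal protein genes had such a neighbour in 9 of 82 cases. The median distance between starts was 82 bp in the members and 128 bp over all genes. Mrpl41 and Pnpla7 were just inside the limit at 935 bp, and Mrpl34 and Abhd8 were just outside it at 1304 bp. A further 15 members had an opposite-strand start within 1 kb downstream, so that the genes overlap at their 5′ ends. Together 33 of 78 had an opposite-strand start within 1 kb, against 10.9% of all genes and 18.5% of genes open in both libraries.

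The intervals between the starts of the closest pairs are printed to show how little DNA separates them, with 2 longer ones that hold an ETS match or NFY and SP/KLF matches. They are given on the member's strand, and capitals mark ETS (CCGGAAG), NFY (CCAAT) and SP/KLF (GGGCGG) letters on either strand.
Mrpl54 and Apba3, chr10:81266935-81266959: acctccaaagccgatctggagggct
Mrps18c and Helq, chr5:100798599-100798626: gtgaCTTCCGGcccgggaagcgcgggaa
Mrps18b and Ppp1r10, chr17:35916390-35916433: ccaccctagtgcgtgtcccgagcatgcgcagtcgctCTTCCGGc
Mrpl57 and Ska3, chr14:57826186-57826233: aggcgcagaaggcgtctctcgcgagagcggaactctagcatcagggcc
Mrps27 and Ptcd2, chr13:99344706-99344785: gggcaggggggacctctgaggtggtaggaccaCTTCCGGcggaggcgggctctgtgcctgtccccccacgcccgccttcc
Mrpl51 and Ncapd2, chr6:125191702-125191800: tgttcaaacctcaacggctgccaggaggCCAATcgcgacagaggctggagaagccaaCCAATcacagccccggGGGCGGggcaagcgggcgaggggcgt

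The 5 shortest distances were 26 bp for Mrpl54 and Apba3, 29 bp for Mrps18c and Helq (a DNA helicase), 29 bp for Mrps34 and Eme2 (a DNA repair endonuclease subunit), 45 bp for Mrps18b and Ppp1r10 (a regulator of protein phosphatase 1) and 49 bp for Mrpl57 and Ska3 (a kinetochore protein). All bases between these starts were in peaks in both libraries. Each interval held 1 or 2 footprints per library. That of Mrps34 and Eme2 lies in exons and is not printed. The other neighbours serve varied functions: Fau (a cytosolic ribosomal protein fused to a ubiquitin-like one), Psma2 (proteasome), Ncapd2 (condensin) and Hira (a histone chaperone). Sars2, the mitochondrial seryl-tRNA synthetase, and Ptcd2, a mitochondrial RNA-processing protein, act in mitochondria like their partners Mrps12 and Mrps27.

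Promoters with a divergent neighbour ranked higher in density, among members and among genes in general. The 18 members with such a neighbour had median percentiles of 70.4 and 75.2, and the 58 open members without one had 56.9 and 46.6. Over all genes the medians were 71.0 and 71.2 with a divergent neighbour and 46.7 and 46.8 without. The ranges of the members overlapped widely: Mrps5 and Mrps34, both with a divergent neighbour, were at percentiles 35.0 and 17.4 and at 31.8 and 23.1. Mrpl17, the highest-ranked member in replicate 1 and by the mean of both libraries, had no opposite-strand start within 1 kb. Mrps18b, the highest-ranked in replicate 2, has a divergent neighbour. The 15 members with an overlapping opposite-strand start had medians of 60.9 and 57.5, and the 43 open members with no such neighbour had 52.5 and 45.3. In these pairs a peak or footprint cannot be assigned to one gene rather than the other.

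Footprint numbers in member promoters were near those of other open genes. Members with a peak held a median of 9 footprints in replicate 1 and 6 in replicate 2, against 8 and 7 over all genes with a promoter peak. In replicate 1 the lowest count was 4 and the highest 28, and in replicate 2 they were 2 and 17. Mrps18b had the most, with 28 and 17, followed by Mrpl40 with 24 and 16, Mrpl17 with 17 and 14, Mrps12, whose product belongs to the decoding centre, with 18 and 11, and Mrpl41 with 14 and 15. Mrps18b, Mrpl40, Mrps12 and Mrpl41 of these 5 have a divergent neighbour, as do 23.1% of all members and 6.79% of all genes. Among open members the median was 10 and 8.5 footprints with such a neighbour and 8 and 6 without. Over all genes with a promoter peak it was 11 and 8 with one and 8 and 7 without, so the difference was not particular to the members. Of 717 footprints in member promoters of replicate 1, 60.9% overlapped a footprint of replicate 2, against 54.9% over all gene promoters. Of 552 in replicate 2, 84.6% overlapped one of replicate 1, against 78.5%. Not all footprints lay in called peaks: the share that did was 61.8% and 72.1% in members, against 67.6% and 74.2% over all gene promoters.

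Of the 10 motifs searched on both strands, ETS letters were about as far above their background as SP/KLF letters were below theirs. CCGGAAG was in the promoter peaks of 33 of 76 members (43.4%) in replicate 1 and 36 (47.4%) in replicate 2, against 22.0% and 24.4% of all genes with a promoter peak. YY1 letters (AAGATGGC) were in those of 12 and 11 members (15.8% and 14.5%), against 5.88% and 5.86%. NRF1 letters (GCGCANGCG) were in those of 18 and 20 members (23.7% and 26.3%), against 16.6% and 17.6%. SP/KLF letters (GGGCGG) went the other way, with 40 and 42 members (52.6% and 55.3%) against 71.8% and 72.2%. NFY letters (CCAAT) were in the peaks of 27 and 23 members, against 43.0% and 39.7% of all genes.

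**Figure D4:**
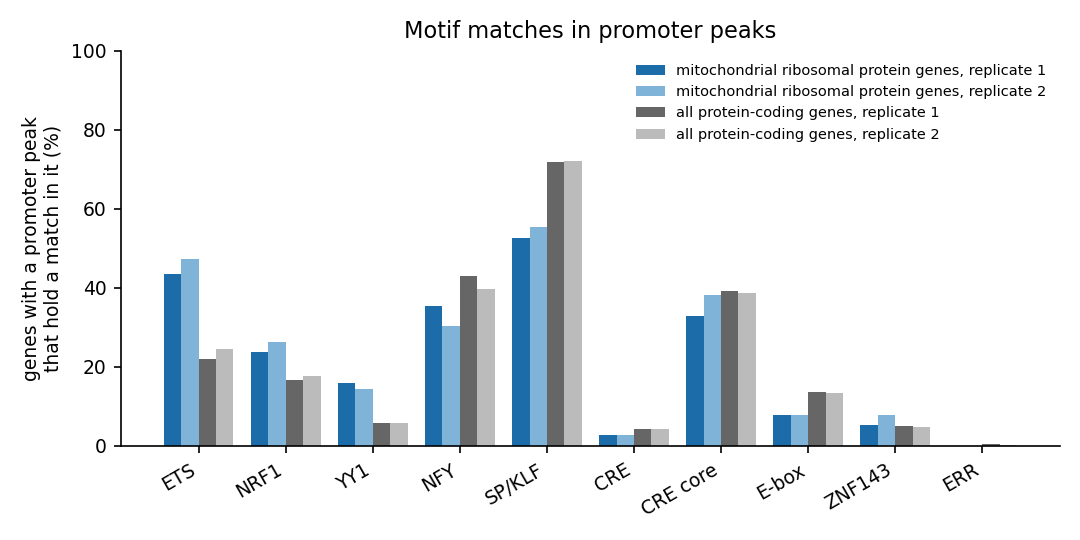
Share of genes with a promoter peak that hold each of 10 motifs in their promoter peaks, in percent, for members (blue) and all protein-coding genes (grey) in each library. ETS stands at 43.4% and 47.4% in members against 22.0% and 24.4% in all genes, and SP/KLF at 52.6% and 55.3% against 71.8% and 72.2%.

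Peaks differ in number between genes, so the motifs were also counted in a window of equal length for every gene, from 250 bp before to 50 bp after the start. There ETS letters were in 27 of 78 members (34.6%), against 10.8% of all promoters of this length and 17.8% of those of genes open in both libraries. YY1 letters were in 10 members (12.8%), against 2.92% and 4.38%, and NRF1 letters in 15 (19.2%), against 8.30% and 13.6%. For SP/KLF the members' 44.9% lay near the 43.0% of all promoters and under the 63.3% of open ones. NFY letters were in 35.9% of members, against 39.0% and 38.9%.

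The remaining motifs were near their background or rare in the members, and of the rare ones ZNF143 letters were above background in the fixed window. CRE letters (TGACGTCA) were in the promoter peaks of 2 members in each library, against 4.17% and 4.29% of all genes, and in 2 of 78 windows, against 2.43% of all promoters and 3.66% of open ones. The CRE core (TGACG, which lies inside the CRE letters) was in the peaks of 25 and 29 members, against 39.3% and 38.8%. It was in 27 windows (34.6%), against 23.1% of all and 32.3% of open promoters. E-box letters (CACGTG) were in the peaks of 6 members in each library, against 13.6% and 13.4%, and in 5 windows, against 7.75% of all and 10.5% of open promoters. ZNF143 letters (ACTACAA) were in the peaks of 4 and 6 members (5.26% and 7.89%), against 5.08% and 4.67%, and in 6 windows (7.69%), against 3.70% and 4.24%. They had their midpoint under a promoter footprint in 4 and 3 members (5.26% and 3.95%), against 2.14% and 1.88% of genes with a promoter footprint. ERR letters (TCAAGGTCA) were in none of the members' peaks or windows, against 0.362% and 0.207% of all genes for peaks and 0.474% of all and 0.293% of open promoters for windows. The absence of these letters from this window says nothing about the factors themselves.

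The ETS, NRF1 and YY1 letters were also more frequent under the footprints of members than under those of all genes. ETS letters had their midpoint under a promoter footprint in 29 of 76 members (38.2%) in replicate 1 and 26 (34.2%) in replicate 2, against 15.8% of genes with a promoter footprint in each library. NRF1 letters did so in 21 (27.6%) and 23 (30.3%), against 16.1% and 16.9%, and YY1 letters in 8 and 5, against 3.11% and 2.34%. Matches under footprints of both libraries numbered 27 for ETS in 24 members, 24 for NRF1 in 20 members and 5 for YY1 in 5 members. Their median position was 12 bp after the start for ETS, 13 bp before it for NRF1 and 26.5 bp after it for YY1. Of the 24 NRF1 matches 14 lay within 100 bp of the start, and they ranged from -302 to 430 bp. Of the 27 ETS matches 21 lay within 100 bp of the start, and 15 pointed along the gene and 12 against it. Of the YY1 matches 4 of 5 lay within 100 bp, and 4 of 5 pointed along the gene. These matches of both libraries, their positions and their strands are given for members only, with no share over all genes. Footprints of all genes with a peak in both libraries also gathered at the start. They numbered 0.872 and 0.806 per gene in the 50 bp before it, against 0.147 and 0.105 from 500 to 550 bp after it.

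The genes that work beside the mitochondrial ribosome were open as well. Of 58 listed genes for mitochondrial translation and mitochondrial DNA expression, 57 had a promoter peak in both libraries, against 54.4% of all genes. These were 5 of 5 ribosome subunits with other symbols (Aurkaip1, Chchd1, Dap3, Gadd45gip1 and Ptcd3), 12 of 12 translation factors, 16 of 17 mitochondrial tRNA synthetases, 13 of 13 ribosome assembly factors and 11 of 11 genes that copy or express mitochondrial DNA. Tars2, the mitochondrial threonyl-tRNA synthetase, was the one without a peak. Sars2 and Twnk start within 1 kb of the members Mrps12 and Mrpl43 and had the same densest values as these. They were 15.9 and 17 for Sars2 and Mrps12, and 16.5 and 7.03 for Twnk and Mrpl43. Their peaks therefore do not count apart from those of the members. Median percentiles ran from 55.6 and 37.2 for the subunits with other symbols to 71.5 and 74.7 for the mitochondrial DNA genes. Tfam, which packages mitochondrial DNA, had densities of 31.7 and 12.6 (percentiles 92.8 and 78.4). Tufm, the elongation factor that brings tRNAs to the ribosome, had 17.2 and 13.6 (percentiles 71.4 and 80.8). Of the initiation factors, Mtif2 was low with 1.99 and 1.15 (percentiles 22.3 and 16.2). Mtif3 had 5.98 and 4.22 (percentiles 38.5 and 41.6).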

How the data were processed

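The deposited files hold, per library, peak lists, footprints and false discovery rates on mm10, per the labels. The deposited signal density of each peak is the authors' own value, with unstated scaling, and was used only within a library. The false discovery rate is the authors' deposited q-value (a p-value adjusted for multiple testing) per run of bases. Every run listed was counted as below 0.05, with no further cut applied. Footprints carry the same deposited value of 0.01 throughout, so only positions were used. What aligner and callers made them is not given in the sources used here. Nothing was pooled.

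The longer peak list of each library was used, and a peak or footprint had to overlap the window by at least 1 bp. Percentiles rank a gene's densest promoter peak among all protein-coding genes with one. No test was run, since there is 1 group of 2 mice: counts stand beside the same over all genes, and the spread is between these mice only. Members, lists and motifs were chosen with earlier results of these data known. Genes were named by rank: no promoter peak, the 5 highest and 5 lowest percentiles, the 5 with most footprints, the 5 closest divergent pairs, 3 or more peaks in both libraries, and the highest-ranked with ETS, NRF1 or YY1 letters under footprints of both. Mrpl39, Mrpl20, Mrpl47, Mrpl48, Mrps28, the genes with differing densest peaks, the named pathway genes and the pairs of Mrps27 and Mrpl51 were chosen after their values were seen. Alternatives covered the peak list, window, transcript start, overlap rule, density sum and each library alone. Python 3.11.15, numpy 2.4.6, pandas 2.3.3, scipy 1.17.1 and pyfaidx 0.9.0.4 were used. Overlap code was tested on simulated data with 200 planted peaks, all 200 recovered. The total of windows found differed from that of bedtools 2.31.1 by 0. Every planted peak overlapped its window and no other window had a peak close by, so near misses were not tried.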

Additional observations from a re-analysis of the deposited data

How the results depend on the processing

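With any opposite-strand protein-coding start within 1 kb counted, upstream or downstream, members with such a neighbour numbered 33 in place of 18; with any biotype they numbered 20, and within 500 bp 17. The other results stayed within 1.5 times their count, or within 1 SD for the percentile, under every alternative run. That SD is the spread between the same 2 libraries. Each library alone therefore lies within it by construction, and those 2 runs do not test stability of the percentile. Members with a promoter peak ranged from 74.5 (500 bp on either side, mean of both libraries) to 78 (any transcript start), and those with a footprint from 75 to 78. The mean median percentile ranged from 51.9 (sum of densities) to 56.3 (2 kb) and was 50.6 without replicate 1 and 61.0 without replicate 2. Members with ETS letters numbered 36 and 33 without each, and 27 in the fixed window. No paired analysis was possible because both libraries belong to 1 group. With 2 mice and unstated depth, differences between libraries cannot be told apart from depth, and low-density sites may be missed.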

Other observations

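The annotation also holds 5 processed pseudogenes with the names of members: Mrpl23-ps1, Mrpl48-ps, Mrps36-ps1, Mrps36-ps2 and Mrps36-ps3. None had a peak or a footprint within 1 kb of its start in either library, with 0 of 5 in each. Mrpl46 and Mrps11 form a pair within the family. They lie on opposite strands, with each start at -412 bp from the other, where a negative distance means that the 5′ ends overlap. A single peak served both, at chr7:78783001-78783180 in replicate 1, with a density of 7.99, and at chr7:78782981-78783160 in replicate 2, with a density of 2.95. It covered the gene start of Mrps11 and lay 351 and 371 bp from that of Mrpl46, where it covered another annotated start.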
